A study of Mus musculus with 9 samples.

Results

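The genes described here end the light response of the photoreceptor and reset it through calcium: Sag, Grk1, Rgs9, Rgs9bp, Gnb5, Rcvrn, Guca1a, Guca1b, Gucy2e and Gucy2f. They were taken by symbol from the annotation of the arrays, which gave 10 genes with 17 probes among the 31709 genes and 39429 probes measured. Gene expression was measured in the mouse choroid (CH), retinal pigment epithelium (RPE) and photoreceptors (PR), with 3 samples of each. All samples came from female C57BL/6 mice of 6 months (± 2 weeks) according to the labels, and each was laser dissected from an eye. The paper gives a slightly younger age, and whether the eyes came from different mice is not stated, so that p-values measure the spread between eyes. RNA of the tissue was amplified and labelled with Cy5, and on all 9 dual-colour Agilent arrays it was hybridised against a common reference made from mouse RPE/choroid and labelled with Cy3. A value below is log2(Cy5/Cy3) after background correction and loess normalization, so that 0 means as much signal as in the reference. The arrays lay on 3 slides. Slide 1 held CH 1, CH 3, RPE 1 and RPE 3, slide 2 held CH 2, RPE 2 and PR 2, and slide 3 held PR 1 and PR 3.

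In a photoreceptor, light activates an opsin, which activates transducin and then the phosphodiesterase that breaks down cGMP, so that the cation channels close and calcium falls. Rhodopsin kinase and arrestin switch the opsin off, and the complex of Rgs9, its anchor and the G protein beta subunit Gnb5 speeds up the hydrolysis of GTP by transducin. The fall in calcium is read by recoverin and by the guanylate cyclase activating proteins, which release the brakes on rhodopsin kinase and on the membrane guanylate cyclases that restore cGMP.

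Of the 10 genes, 8 were called higher in the PR than the RPE, where a call needed a fold change (FC) above 2.5 and a Benjamini-Hochberg adjusted p-value below 0.01 in limma at 1 or more probes. Over all genes, 5.67% were called in this direction. Rgs9 was called lower in the PR, as were 11.3% of all genes, and Gucy2f was not called. Against the CH, 10 of 10 genes were called higher in the PR, compared with 6.85% of all genes. Rgs9 was called in both directions there, at different probes (13.2% of all genes were called lower in the PR than the CH). Between the RPE and the CH 0 of 10 genes were called by limma, where 0.218% of all genes were called higher and 1.82% lower in the RPE. At an unadjusted limma p below 0.05, 7 of the 10 were higher in the RPE, compared with 16.8% of all genes. At an adjusted p below 0.05 these were 2 of the 10, compared with 10.4% of all genes. At the brightest probes, all PR arrays lay above all RPE arrays for 9 genes, compared with 29.6% of all genes, and below them for Rgs9, compared with 29.1%. All PR arrays lay above all CH arrays for the same 9 genes (33.6% of all genes) and below them for Rgs9 (28.8%). Both comparisons with the PR use the same 3 PR arrays. In tissue samples, more photoreceptor cells and more RNA per photoreceptor cannot be told apart.

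**Figure D1:**
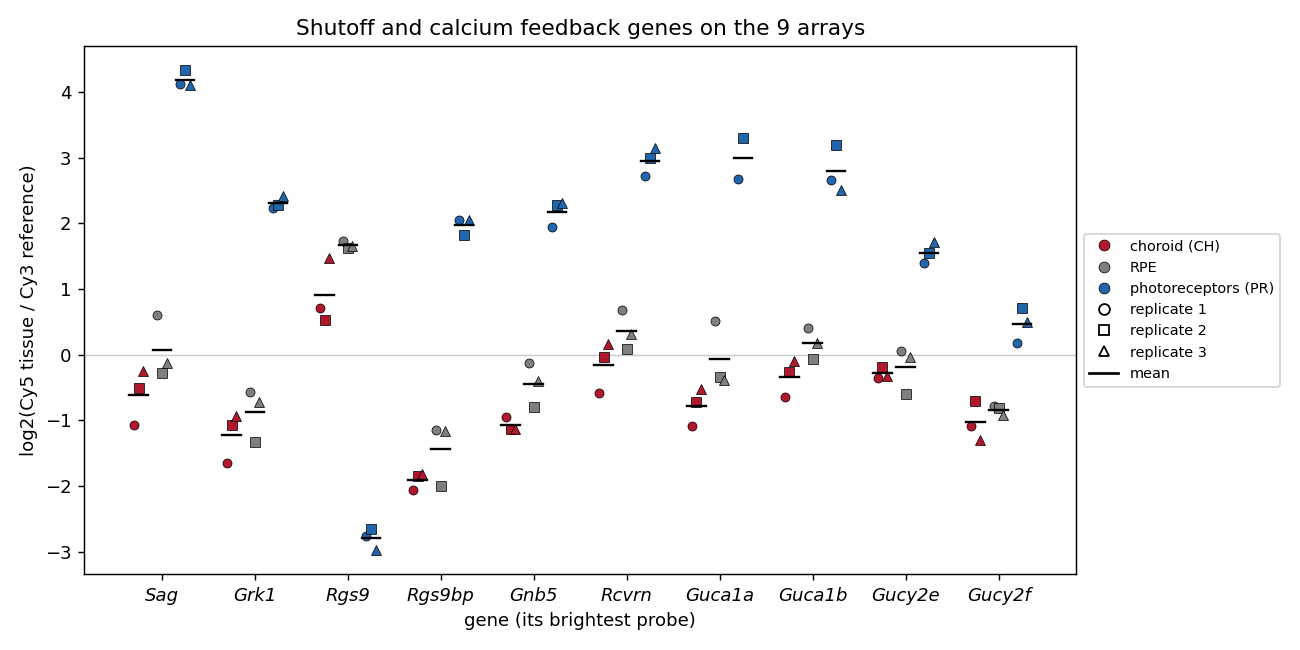
Log2(Cy5/Cy3) of the 10 genes, each at the brightest probe, on 9 arrays, with colours for tissues, symbols for replicates and bars for means. At 9 genes all PR points lie above all CH and RPE points, and at Rgs9 all PR points lie below them; the PR 3 point of Guca1a is missing because its spot was marked as an outlier.

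Marker genes were compared to check the labelled tissues, and the shares of all genes called are those given above. All 8 rod markers and all 6 cone markers were called higher in the PR than the RPE and than the CH, and 8 of 9 RPE markers and 5 of 5 fibroblast markers were called lower in the PR than the RPE. Lower in the PR than the RPE were also 5 of 5 markers of pigment cells and 6 of 7 of the endothelium. Of 10 inner retina markers 3 were called higher in the PR than the RPE, 1 lower and 6 not, and of 5 Müller glia markers 2 were called lower and 3 not. The exception among the RPE markers was Best1, with a difference of 0.37, whose probe was well above background on 0 CH arrays, 1 RPE array and 1 PR array. Between the RPE and the CH, 6 of 9 RPE markers were called higher in the RPE, and 5 of 5 fibroblast markers and 3 of 5 pigment cell markers lower. Of the endothelium markers 7 of 7 were not called between these tissues, and their mean was 1.17 in the RPE and 1.26 in the CH. At Cdh5 and Vwf, however, all RPE arrays lay below all CH arrays. The mean of the rod markers was between 3.32 and 3.56 on the PR arrays. It was -1.25, -0.79 and -0.48 on CH 1, CH 2 and CH 3 and 0.28, -0.62 and -0.44 on RPE 1, RPE 2 and RPE 3, so that RPE 1 was the highest array outside the PR. Over the spots that are not controls, 63.1% to 91.8% were well above background in Cy5, with RPE 2 the highest.

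Sag encodes arrestin-1, which binds light-activated rhodopsin after it is phosphorylated and blocks transducin. Its probe lies on chromosome 1 between 89724996 and 89728424 (mm9) and spans 3429 bases of the genome with 60 bases of sequence, so it crosses at least 1 intron. Log2(Cy5/Cy3) of Sag was -1.07, -0.51 and -0.25 in the 3 CH arrays, 0.60, -0.28 and -0.12 in the RPE arrays and 4.12, 4.34 and 4.10 in the PR arrays. The PR arrays did not overlap with the others. The Cy5 spot was saturated on all 3 PR arrays, so the level in the PR has only a bound. On the Cy5 signals after loess and Aquantile, the bound was 2.65-fold over the RPE and 3.53-fold over the CH. These signals also draw on the Cy3 signal, which was lower on the PR arrays at this probe. The bound holds only on that scale. Cy5 alone after quantile normalization gave log2 differences of 1.17 and 1.61, which are smaller when put as folds. The difference of the fitted log2 ratios was 4.12 ± 0.25 (SE) against the RPE (B-H adjusted p = 5.75e-07 in limma) and 4.80 ± 0.25 against the CH (adjusted p = 1.57e-07).

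Grk1, the kinase of rhodopsin, had 2 probes. At the brighter probe (chr8:13421654-13421713) the log2 ratio was -1.65, -1.07 and -0.94 in the CH, -0.56, -1.33 and -0.72 in the RPE and 2.24, 2.28 and 2.42 in the PR. The PR arrays lay close to each other and well above the others. The level was 9.08-fold higher in the PR than the RPE (log2 difference 3.18 ± 0.22, adjusted p = 1.46e-06) and 11.6-fold higher than in the CH (3.53 ± 0.22). The other probe, in an upstream part of the gene, gave 5.38-fold and 5.43-fold.

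Rgs9, the protein that accelerates the GTPase of transducin, was the only one of the 10 genes with probes of opposite direction in the PR. The gene is known for splice forms that differ at the 3′ end, one of the retina and one of the striatum. The array carried 2 overlapping probes for the accession NM_011268 and 1 probe for the accession NM_001165934. Which form each accession stands for was not settled, and whether splicing accounts for the opposite directions was not tested. The first 30 bases of the 3 probes are shown because the probes differed in direction. Capitals mark the bases within the 54 of 60 that the first pair shares (positions on mm9, sequence 5′ to 3′).
A_55_P2032232, chr11:109086669-109086728, minus strand: GTGGGCCAGAAGATATCCCTTGCTGCCTTA
A_55_P1969032, chr11:109086675-109086734, minus strand: aggcatGTGGGCCAGAAGATATCCCTTGCT
A_66_P140185, chr11:109096382-109096441, minus strand: tatagactttgctatctcagcactcagggg
The third probe shares no run longer than 7 bases with the others.

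At the brightest Rgs9 probe, A_55_P2032232, the log2 ratio was 0.70, 0.52 and 1.48 in the CH, 1.73, 1.63 and 1.65 in the RPE and -2.76, -2.65 and -2.98 in the PR. All PR arrays lay far below all others. Scanned in Cy5, it ranged from 20349 to 50171 in the CH and RPE and from 1356 to 1877 in the PR, still well above background. It was 22.1-fold lower in the PR than the RPE (difference -4.47 ± 0.21, adjusted p = 1.23e-07) and 13.0-fold lower than in the CH (-3.70 ± 0.21). The overlapping probe A_55_P1969032 gave 18.2-fold and 10.9-fold lower levels, which is no independent measurement. The probe for NM_001165934, A_66_P140185, went the other way. It was far dimmer, though well above background on all 9 arrays. Its scanned Cy5 signal ranged from 802 to 1789 in the CH and RPE and from 2021 to 2881 in the PR. Its log2 ratio was -0.03, -0.05 and 0.10 in the CH, 0.58, 0.52 and 0.34 in the RPE and 1.53, 1.92 and 1.55 in the PR. The 3 tissues did not overlap at this probe, with the CH lowest and the PR highest. It was 3.16-fold higher in the PR than the CH (1.66 ± 0.12, adjusted p = 1.84e-06), which was called, and 2.28-fold higher than in the RPE (1.19 ± 0.12, adjusted p = 2.48e-05), which is under the fold threshold. A mean over the probes of Rgs9 hides this, since it gave -2.49 for PR minus RPE.

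**Figure D2:**
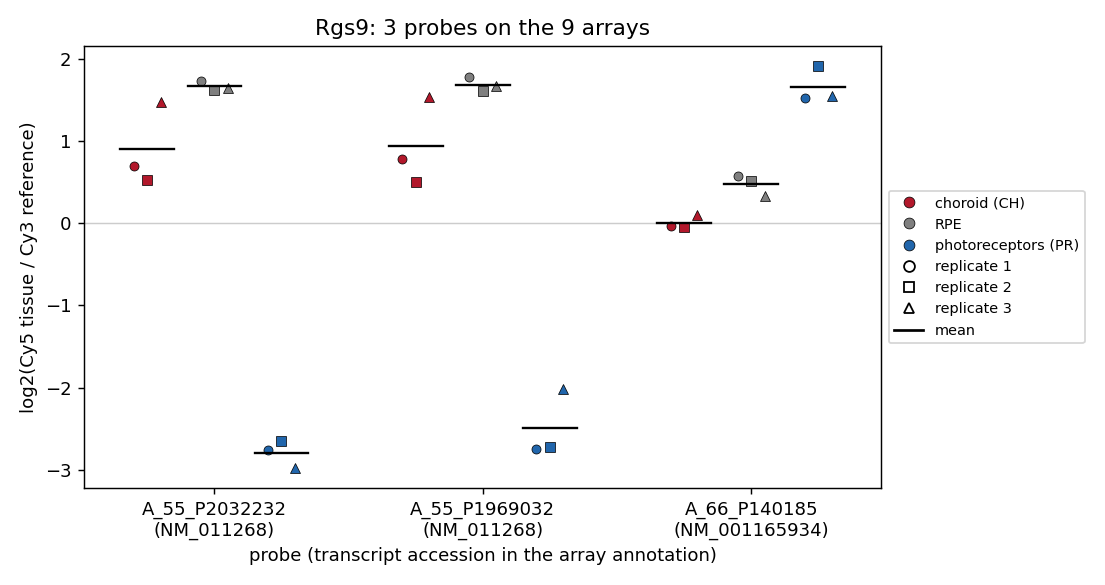
Log2(Cy5/Cy3) of the 3 Rgs9 probes on the 9 arrays, with colours for tissues, symbols for replicates and bars for means. At both probes of NM_011268 the PR arrays lie between -2.98 and -2.02, below all others, whereas at the probe of NM_001165934 they lie between 1.53 and 1.92, above all others.

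Rgs9bp anchors Rgs9 to the disc membrane. At its brighter probe (chr7:36364652-36364711) the log2 ratio was -2.06, -1.85 and -1.81 in the CH, -1.15, -2.00 and -1.17 in the RPE and 2.05, 1.83 and 2.06 in the PR. The PR arrays were again separate from the others, and the RPE and the CH overlapped. The level was 10.7-fold higher in the PR than the RPE (3.42 ± 0.21, adjusted p = 5.66e-07) and 14.8-fold higher than in the CH (3.89 ± 0.21). Its other probe A_55_P2134947, elsewhere in the gene, did not pass. There the log2 ratio was -0.05, 0.21 and -0.05 in the CH, 0.66, 0.28 and 0.46 in the RPE and 0.41, 1.51 and 0.94 in the PR, with a difference of 0.49 ± 0.24 from the RPE (adjusted p = 0.118). The PR and RPE arrays overlapped at this probe, and it was dim, with a scanned Cy5 signal between 428 and 1266 on the 9 arrays.

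Gnb5, the beta subunit without which Rgs9 is unstable, was measured by 1 probe that spans 936 bases of the genome (chr9:75191364-75192299). The log2 ratio was -0.95, -1.13 and -1.13 in the CH, -0.13, -0.80 and -0.40 in the RPE and 1.94, 2.28 and 2.30 in the PR. The 3 tissues did not overlap. Gnb5 was 6.15-fold higher in the PR than the RPE (2.62 ± 0.17, adjusted p = 8.40e-07) and 9.49-fold higher than in the CH (3.25 ± 0.17). Thus the partners Rgs9bp and Gnb5 were called higher in the PR, and Rgs9 was called higher only against the CH and only at the probe of NM_001165934.

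Rcvrn encodes recoverin, which at high calcium holds back rhodopsin kinase. At its probe (chr11:67516723-67516782) the log2 ratio was -0.59, -0.03 and 0.17 in the CH, 0.68, 0.08 and 0.32 in the RPE and 2.72, 3.00 and 3.15 in the PR. The RPE and the CH overlapped, and the PR lay above both. Rcvrn was 6.05-fold higher in the PR than the RPE (2.60 ± 0.21, adjusted p = 4.65e-06) and 8.62-fold higher than in the CH (3.11 ± 0.21).

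Guca1a and Guca1b encode the activating proteins GCAP1 and GCAP2, which stimulate the cyclases when calcium is low, and they are neighbours on chromosome 17. For Guca1a (chr17:47532517-47532576) the log2 ratio was -1.08, -0.73 and -0.53 in the CH and 0.51, -0.34 and -0.39 in the RPE. It was 2.68 and 3.31 on PR 1 and PR 2, and the spot of PR 3 carried an outlier mark and was left out of the fit. The spot was saturated on PR 2 and PR 3, so that the 8.36-fold difference from the RPE (3.06 ± 0.31, adjusted p = 3.51e-05) and the 13.6-fold difference from the CH rest on 1 unsaturated and 1 saturated spot. With Cy5 alone the log2 differences were 1.93 and 2.37. For Guca1b (chr17:47529701-47529760) the log2 ratio was -0.65, -0.27 and -0.09 in the CH, 0.40, -0.07 and 0.18 in the RPE and 2.66, 3.20 and 2.51 in the PR. No array of the PR overlapped with the others. Guca1b was 6.15-fold higher in the PR than the RPE (2.62 ± 0.21, adjusted p = 3.31e-06) and 8.74-fold higher than in the CH. Its other probe gave 3.81-fold and 7.42-fold, with CH 2 left out for an outlier mark. No run longer than 9 bases is shared by any pair of probes of different genes among the 17, Guca1a and Guca1b included.

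Gucy2e and Gucy2f encode the guanylate cyclases of the outer segment. Gucy2e had 3 probes. At the brightest (chr11:69034815-69034874) the log2 ratio was -0.35, -0.19 and -0.32 in the CH, 0.06, -0.60 and -0.03 in the RPE and 1.40, 1.55 and 1.72 in the PR. The RPE arrays enclosed the CH arrays, and the PR arrays lay above both. The level was 3.35-fold higher in the PR than the RPE (1.74 ± 0.17, adjusted p = 1.40e-05) and 3.58-fold higher than in the CH. The other 2 probes, which share 18 bases, were also called, with 3.28-fold and 2.92-fold against the RPE. They were dim: A_55_P2176270 was well above background on 0 CH arrays, 1 RPE array and 3 PR arrays, and A_55_P2044074 on 1 CH array, 1 RPE array and 3 PR arrays, so that these folds rest on few measured RPE spots. At both probes the RPE array was RPE 2, on which more spots were well above background than on any other array (91.8%).

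At the single probe of Gucy2f (chrX:138515703-138515762) the log2 ratio was -1.08, -0.71 and -1.29 in the CH, -0.79, -0.82 and -0.91 in the RPE and 0.18, 0.72 and 0.50 in the PR. These PR values also lay above all CH and RPE values. Gucy2f was 2.82-fold higher in the PR than the CH (1.49 ± 0.17, adjusted p = 3.66e-05), which was called. Against the RPE it was 2.47-fold higher (1.31 ± 0.17, adjusted p = 1.13e-04), just under the fold threshold.

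**Figure D3:**
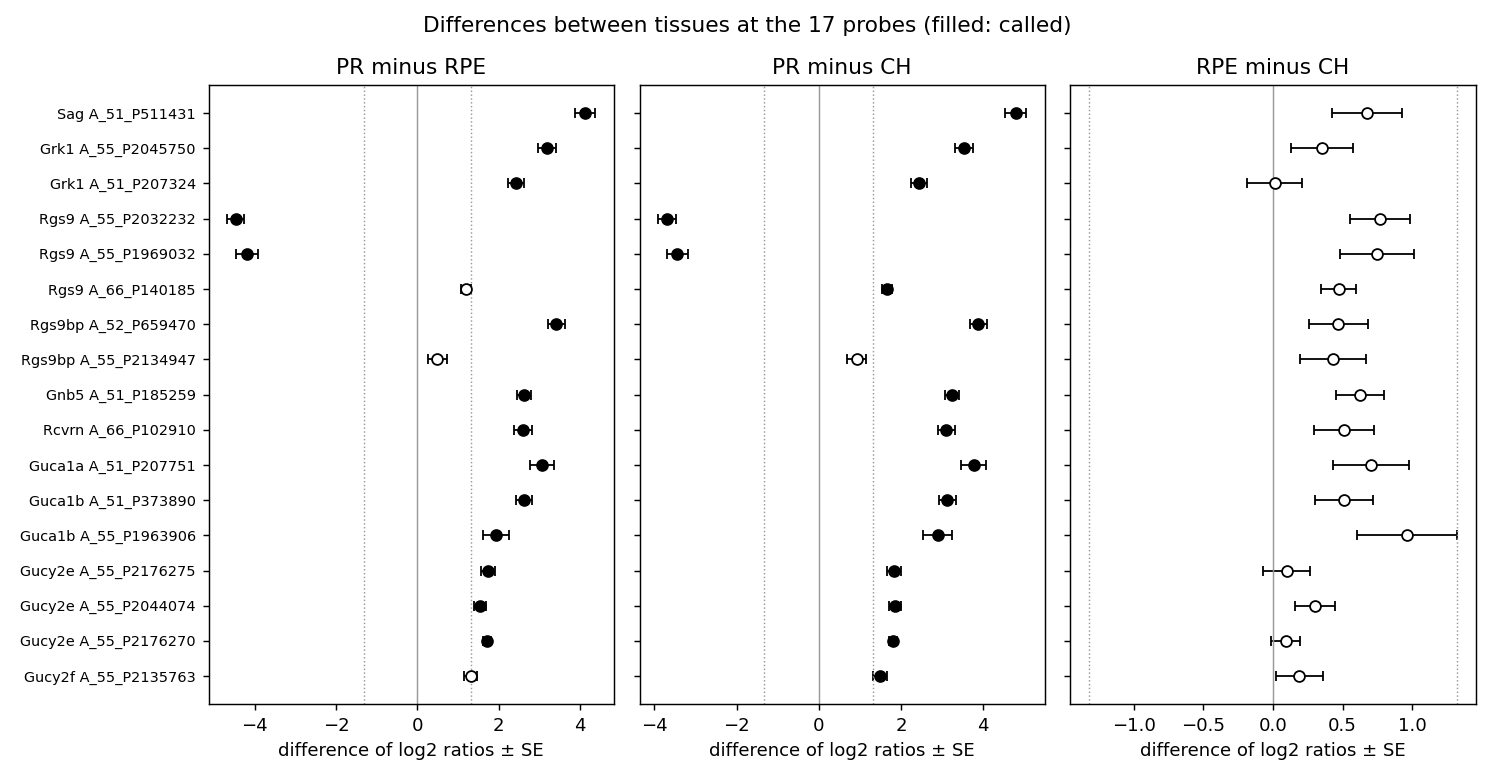
Differences between tissues at the 17 probes with the standard error of the limma fit, in log2 units, with dotted lines at an FC of 2.5 and filled points for called probes. In the comparisons of the PR, the Rgs9 probes of NM_011268 stand on the left and the others on the right, whereas in the comparison of the RPE with the CH no point is filled.

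Because slide 3 held PR arrays alone, tissue and slide were partly mixed. A fit with slide as a block takes the whole difference of PR 1 and PR 3 into slide 3, so that its PR value rests on PR 2 alone, which is assumed to vary like the other arrays. This fit gave differences between the PR and the RPE of 4.39 for Sag, 3.31 for Grk1, -4.11 for Rgs9, 3.52 for Rgs9bp, 2.93 for Gnb5, 2.72 for Rcvrn, 3.49 for Guca1a, 3.12 for Guca1b, 1.90 for Gucy2e and 1.38 for Gucy2f, and 1.45 at the Rgs9 probe A_66_P140185. The last pair passed the thresholds in this fit, and PR 2 was the highest PR array at both. Slide 2 carried 1 array of each tissue, which allows no test. On it PR 2 differed from RPE 2 by 4.62 for Sag, 3.61 for Grk1, -4.28 for Rgs9, 3.83 for Rgs9bp, 3.08 for Gnb5, 2.92 for Rcvrn, 3.64 for Guca1a, 3.27 for Guca1b, 2.15 for Gucy2e and 1.53 for Gucy2f. The signs are those of the fit on all arrays.

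The reference RNA was the same on all arrays, but its Cy3 signal was not the same at the bright probes of these genes. At 6 of the 10 brightest probes (Sag, Grk1, Rgs9bp, Rcvrn, Guca1a and Guca1b) the scanned Cy3 signal of all 3 PR arrays was below that of all CH and RPE arrays, compared with 1.72% of all genes. These were also the 6 members with Cy3 above 20000 on all CH and RPE arrays, a limit chosen after these values were seen, and 4.23% of all genes past it had the same order. For Sag the Cy3 signal ranged from 75114 to 108303 in the CH and RPE and from 10455 to 18684 in the PR. For Rcvrn it ranged from 35473 to 45010 and from 14747 to 28832. At Rgs9 and Gnb5 the ranges overlapped.

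A ratio rises when its reference falls, so the Cy5 channel was also fitted alone, after quantile normalization. Then PR minus RPE was 1.17 for Sag, 2.85 for Grk1, 2.94 for Rgs9bp, 1.75 for Rcvrn, 1.93 for Guca1a and 1.97 for Guca1b, compared with ratio differences of 4.12, 3.18, 3.42, 2.60, 3.06 and 2.62. Sag then was under the fold threshold against the RPE (adjusted p = 0.0027), with its PR spots saturated. The 4 genes without a lower reference signal gave -4.43 for Rgs9, 2.86 for Gnb5, 2.34 for Gucy2e and 1.64 for Gucy2f. Why the reference signal was lower on the PR arrays was not tested.

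**Figure D4:**
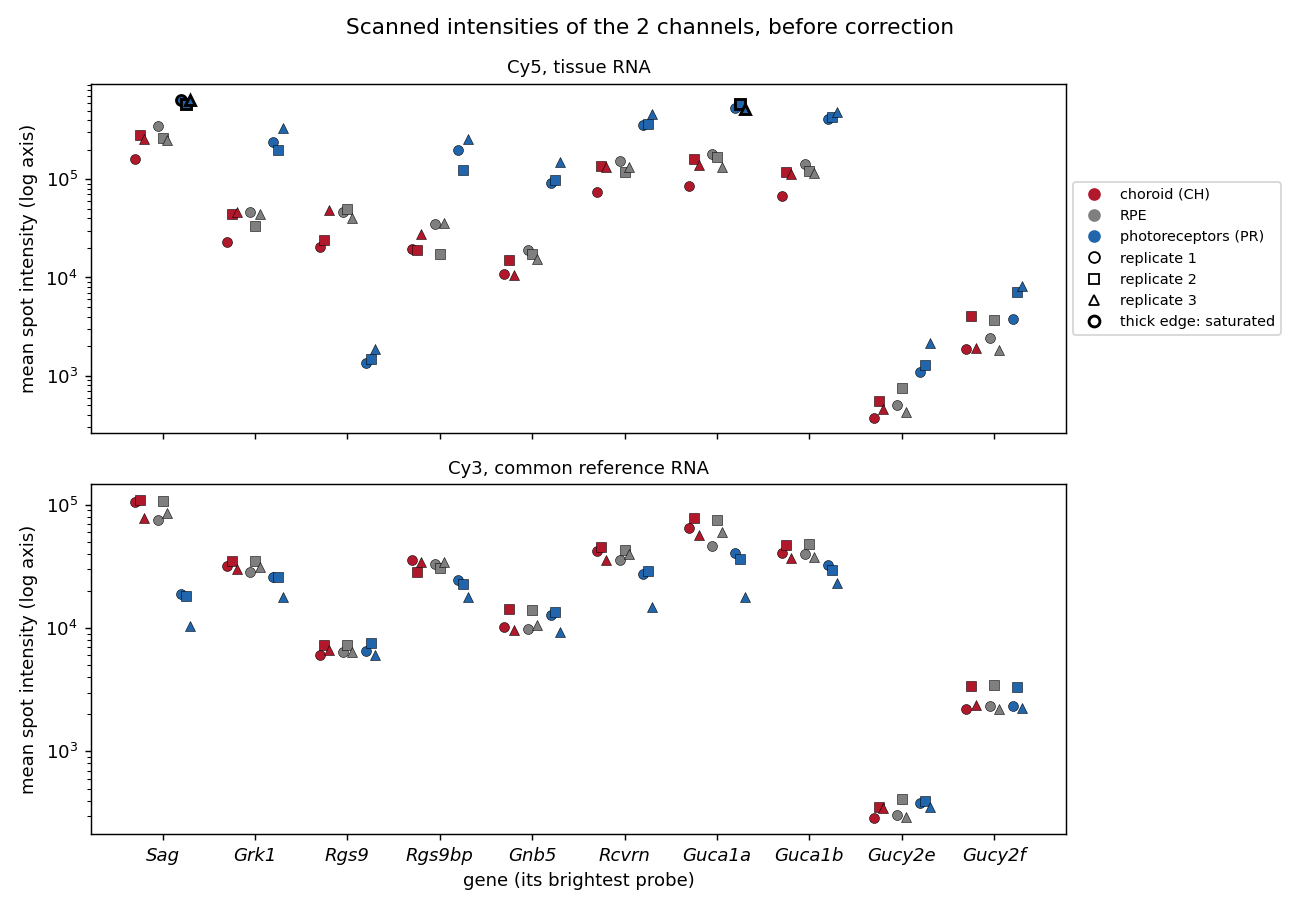
Scanned mean intensities of both channels at the brightest probe of each gene, on log axes, with colours for tissues, symbols for replicates and thick edges for saturated Cy5 spots. In the lower panel the Cy3 signal of the common reference is lower on the PR arrays than on all others for Sag, Grk1, Rgs9bp, Rcvrn, Guca1a and Guca1b.

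Between the RPE and the CH the differences were small. All 10 genes had a higher mean in the RPE at the brightest probe, by 0.10 (Gucy2e) to 0.77 (Rgs9) with a median of 0.51, and over all genes 55.1% had a higher mean in the RPE with a median of 0.031. The same direction was seen at 8 of 8 rod markers (median 0.55). It was also seen at 10 of 10 genes of the rod cascade (0.60) and 8 of 11 of the cone cascade (0.40), both described below. For Gucy2e the sign changed with Cy5 alone (-0.18) and in the authors' series table (-0.14). For Gucy2f it changed with median centring in place of loess (-0.072). At 4 genes (Rgs9, Gnb5, Guca1a and Guca1b) all RPE arrays lay above all CH arrays, as they did for 19.8% of all genes. The unadjusted p was below 0.05 for 7 of 10 genes, compared with 16.8% of all genes, and 2 of them, Rgs9 and Gnb5, had an adjusted p below 0.05 (0.029 and 0.026 in limma), compared with 10.4% of all genes. None had an FC of 2.5, and 0.218% of all genes were called in this direction.

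RPE 1 was the highest RPE array for 10 of 10 genes, and CH 1 was the lowest CH array for 7 of them. RPE 1 was also the RPE array with the highest mean of the rod markers, as given above. Without RPE 1, 9 of the 10 differences between the RPE and the CH were still above 0, and their median was 0.37. On slide 1, which held 2 arrays of each of these tissues, 10 of 10 were above 0 with a median of 0.68, whereas on slide 2, with 1 array of each, 6 of 10 were above 0 with a median of 0.16. Over all probes the median was 0.041 without RPE 1 and 0.035 on slide 1. How many of all genes were highest on RPE 1 was not counted. The part of rod RNA in the RPE samples was not tested.

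The other genes of the cascade and the relatives of these 10 genes were set beside them. The lists share genes with each other and with the rod and cone markers. Genes are counted as called at 1 or more probes, and values are those of the brightest probe. Of the rod cascade, from rhodopsin to the exchanger, 10 of 10 genes were called higher in the PR than the RPE, from 1.82 for Slc24a1 to 4.68 for Cnga1 with a median of 3.16. Of the cone cascade, 11 of 11 were called higher, from 1.37 for Slc24a2 to 4.32 for Pde6h with a median of 3.14. The median of the 10 shutoff and feedback genes was 2.62, and that of all genes was 0.0045.

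The relatives were called in both directions, as were all genes, of which 5.67% were called higher and 11.3% lower in the PR than the RPE. Among 8 arrestins and receptor kinases, 1 was called higher in the PR than the RPE, which was the cone arrestin Arr3 (3.78), 3 were called lower, among them the beta-arrestin Arrb1 (-2.33), and 4 were not called. Of the 3, Grk4 was called at another probe and was at 0.45 at its brightest. Among 10 relatives of the Rgs9 complex 2 were called higher, 2 lower and 6 not. The 2 called higher were the phototransduction subunits Gnb1 (2.66) and Gnb3 (1.92). They are counted in the rod and cone cascades too, as is Arr3. Of the genes called lower, the ubiquitous Gnb2 was at -2.86. The other gene called lower, Rgs7bp, was called at another probe and was at 1.03 at its brightest. Of 13 neuronal calcium sensors and calmodulins 1 was called higher, Hpcal1 (1.34), 2 were called lower, with Calm3 at -2.14, and 10 were not called. Of 10 other guanylate cyclases and cGMP kinases 3 were called lower, with the soluble cyclase subunit Gucy1a2 at -2.61, and 7 were not called. The highest was Gucy2d at 0.65, which was dim, well above background on 0 CH arrays, 1 RPE array and 1 PR array. The median of this list was -0.69. Whether these lists differ from the 10 genes was not tested.

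**Figure D5:**
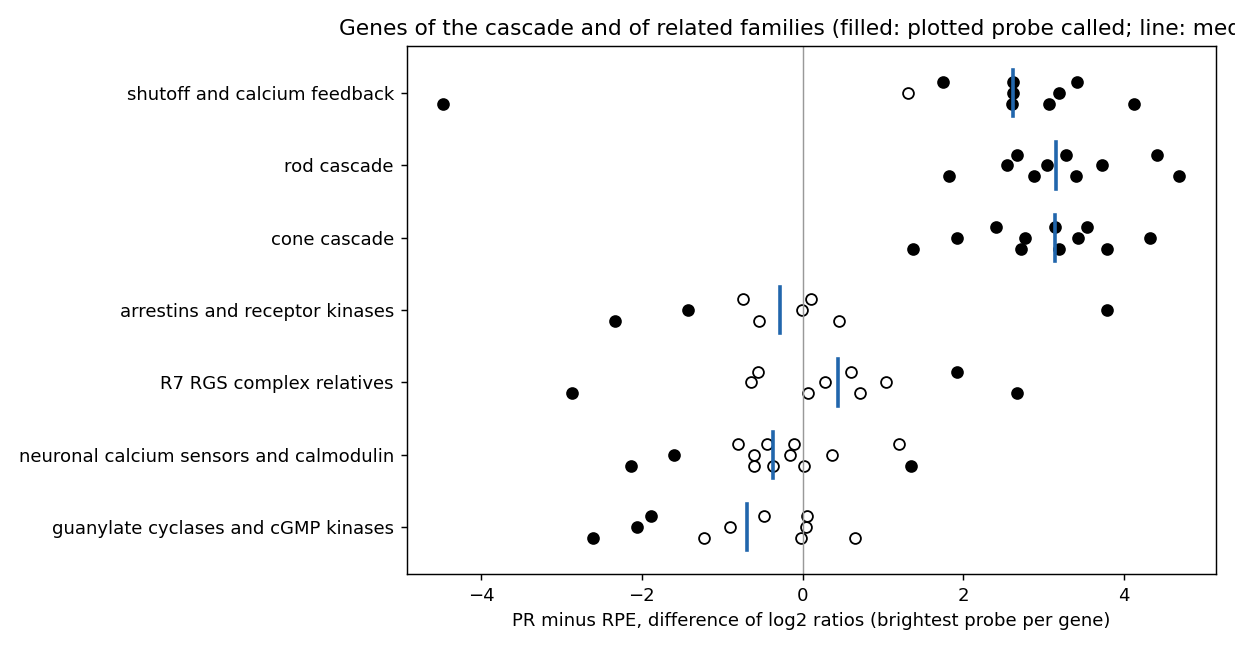
Difference of log2 ratios between the PR and the RPE for each gene of the 7 lists at its brightest probe. Points are filled where that probe was called, and a line marks the median of the list. Gnb1, Gnb3 and Arr3 are in several lists. Apart from Rgs9 at -4.47, the shutoff and feedback genes lie between 1.31 and 4.12, beside the rod and cone cascades, whereas the medians of the arrestin, calcium sensor and cyclase families lie below 0 and that of the Rgs9 complex relatives is 0.44.

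The 5 genes outside the list whose log2 ratio over the 9 arrays was most like the mean of the 10 genes were Gnb1 (Pearson r = 0.9986), Pde6a (0.9983), Cabp4 (0.9982), Grtp1 (0.9980) and Smim40-ps (0.9977), out of 31218 genes. Gnb1 and Pde6a belong to transducin and to the phosphodiesterase of rods, and Cabp4 is a calcium-binding protein of the photoreceptor synapse. The r describes 9 arrays that mostly differ by the PR against the rest. The mean of the 10 genes includes Rgs9, whose brightest probe ran opposite. Its r with the mean of the other members was -0.935, whereas that of each other member was between 0.947 and 0.995.

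Promoter sequences from RefSeq (GRCm38.p6) were matched for 7 of the 10 genes, and the 250 bases before the start were searched on both strands for TAATCC, the core bound by the photoreceptor factor Crx and its relatives. It was found in 5 of the 7 (Sag, Gnb5, Guca1a, Gucy2e and Gucy2f) and in 6.25% of all 32851 promoters. Of 6 promoters matched for the rod cascade, 3 held it too. Among the 7, TAATCC was not found in Grk1 and Rgs9. The sequence TGCTGA, of the type bound by the rod factor Nrl, was found in 2 of the 7 (Sag and Rgs9), in 1 of the 6 of the rod cascade and in 16.1% of all promoters. Gnb5, Guca1a and Gucy2f are shown as examples of a subunit, a sensor and a cyclase with TAATCC, with the core in capitals on either strand. A match describes the letters alone, and these coordinates are not those of the mm9 probes.
Gnb5, chr9:75306038-75306287, plus strand: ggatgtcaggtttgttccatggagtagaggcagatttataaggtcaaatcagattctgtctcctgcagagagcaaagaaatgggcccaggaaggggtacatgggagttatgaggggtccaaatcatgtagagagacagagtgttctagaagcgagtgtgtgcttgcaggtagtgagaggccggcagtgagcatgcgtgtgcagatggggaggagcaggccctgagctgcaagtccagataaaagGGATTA
Guca1a, chr17:47400607-47400856, minus strand: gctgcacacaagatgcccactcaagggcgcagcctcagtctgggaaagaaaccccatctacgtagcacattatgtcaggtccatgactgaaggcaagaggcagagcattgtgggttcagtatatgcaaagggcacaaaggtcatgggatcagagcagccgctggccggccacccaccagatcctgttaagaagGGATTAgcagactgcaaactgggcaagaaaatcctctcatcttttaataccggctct
Gucy2f, chrX:142196937-142197186, minus strand: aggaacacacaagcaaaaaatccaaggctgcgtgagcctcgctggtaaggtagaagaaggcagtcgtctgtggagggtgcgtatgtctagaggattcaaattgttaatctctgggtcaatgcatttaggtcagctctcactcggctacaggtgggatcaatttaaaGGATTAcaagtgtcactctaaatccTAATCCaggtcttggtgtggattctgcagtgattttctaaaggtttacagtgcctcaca
The core ends at the start of Gnb5, begins 57 bases before that of Guca1a, and begins 84 and 59 bases before that of Gucy2f.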

How the data were processed

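The authors scanned the arrays with Agilent Feature Extraction (9.5.3.1) and deposited its output, which gives the scanned intensity of every spot (mean) and of its surroundings (median) in both channels. Their deposited series table holds normalized log2 values of the Cy5 channel, whose normalization is not given in the sources used here, and served as an alternative.

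Background was removed by normexp with an offset of 50, and loess was applied to log2(Cy5/Cy3) within arrays (limma 3.58.1, R 4.3.3). Spots marked as outliers and control spots were left out, and spots of a probe were averaged. One mean per tissue was fitted over the 9 arrays, with moderated variances (eBayes) and p-values adjusted by Benjamini-Hochberg over 39429 probes. A gene was called when 1 or more probes passed an FC of 2.5 and an adjusted p of 0.01. The probe with the brightest Cy5 signal is the one reported, and all member probes are given. Genes beyond the members were named by the lowest and highest difference in a list, or where a count needed it. Bounds compare Cy5 signals after loess and Aquantile, and no dyes were swapped, so they are open to dye bias. Having 3 arrays per tissue limits the precision. The fit was tested on simulated data. Figures were drawn with matplotlib 3.10.9. The members and lists were chosen with earlier results of these data known.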

Additional observations from a re-analysis of the deposited data

How the results depend on the processing

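The count of genes called higher in the PR than the RPE, 8 in the fit on all arrays, was between 6 and 10 over 25 alternatives, and between 8 and 9 when single arrays were left out. It was 6 without probes saturated on any array, which drops Sag and Guca1a, 7 in the authors' series table, which holds no Sag value in this fit, 9 with Cy5 alone and 10 with slide as a block, whose PR value rests on PR 2 alone. Against the CH the count was between 8 and 10, and between the RPE and the CH it was 0 in all 26 alternatives. The signs of PR minus RPE stayed the same over the alternatives at 16 of 17 probes. The exception was Rgs9bp probe A_55_P2134947, at -0.045 in the series table. Over all genes, the processed signals raised the calls in the PR over the RPE from 1799 to 3166 and over the CH from 2171 to 3834, and an FC of 2 raised them to 3007 and 3585. Between the RPE and the CH 646 genes were called in either direction, 1101 with median centring, 386 in the series table, 1571 at an FC of 2 and 0 within slide 1, which has 4 arrays. The cause was not tested. Gucy2f was called against the RPE with Cy5 alone (1.64), median centring (1.66), an offset of 16 (1.35), the processed signals (1.68), without PR 1 (1.45) and without RPE 1 (1.33). The Rgs9 probe A_66_P140185 was called against the RPE with the processed signals (1.48) and Cy5 alone (1.33). The Gucy2e probe A_55_P2044074 lost its call against the RPE with Cy5 alone (1.63) and in the series table (1.73).

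Whether replicate numbers pair the samples was not settled. Across tissues, correlations of deviations were between -0.078 and 0.286 for same-numbered arrays and between -0.312 and 0.246 for others. The arrays numbered 2 also shared slide 2, so that number and slide cannot be told apart there. With the replicate block the counts were 8, 10 and 0, as without it. Signal over background limits the dim Gucy2e probes, and saturation limits Sag and Guca1a.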
